A study of Oryza sativa Indica Group with 6 samples.

Results

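Described here are 83 transcript clusters of rice, of 41770 measured on the array. Their signal was cleanly higher in Abp57-overexpressing seedlings than in wild-type seedlings. Clusters listed beforehand as iron uptake genes, and genes named ZIP plus a number, had been set aside. Most of the 83 carry no known role, so other genes of iron uptake may remain among them. The 83 clusters were chosen by the readout itself. A cluster was kept when the lowest of its 3 overexpression signals lay at least 0.5 log2 above the highest of its 3 wild-type signals, a distance called the gap below. The gap was met by 92 clusters (0.220% of the array), of which 83 (0.199%) were kept. Since the genotype difference made the choice, differences between genotypes over these 83 clusters are given as descriptions, without a p-value. The 9 clusters set aside although they met the gap included those of NAS1, NAAT1, YSL15, YSL2, Nramp1 and ZIP9, which belong to iron and zinc acquisition in rice, and their differences lay between 1.28 and 3.95 log2. A cluster of NAS2 was also listed for removal, but its gap was 0.45 and it would not have been kept in any case.

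The study compared rice transformed through Agrobacterium to overexpress Abp57, grown from T3 seeds, with untransformed rice of the cultivar MR219. Whole seedlings of both genotypes were taken 10 days old from Murashige and Skoog medium, and the RNA of 3 replicates per genotype, each of at least 3 seedlings, was hybridised to 1 array per replicate. The sources used here speak of an overexpressing line in the singular, without stating how many independent lines stood behind the 3 replicates or which promoter drove the transgene, so effects of Abp57 and of a particular insertion cannot be told apart. The rice locus of Abp57 is not named in those sources either, and its own signal was not analysed here. All values are log2 signals. A difference is the mean of the 3 overexpression signals minus the mean of the 3 wild-type signals, and 1 log2 is a 2-fold change. Only 6 arrays were run, and that number limits the precision of every value.

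Abp57 is an auxin-binding protein of rice, studied for its activation of the proton pump of the plasma membrane. Auxin acts on growth through changes in gene expression and through acidification of the cell wall. A transcript cluster on this array is a set of probes placed along the exons of a predicted transcript, read out as a single value, and clusters can therefore represent protein-coding genes, pseudogenes or predictions with no established gene.

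Most of the 83 clusters had no gene name that carries a known function. A single NCBI gene was paired with 37 of them (44.6%, against 36.6% of all clusters), and several genes were paired with 4. Of the other 42, 6 had a locus of the MSU rice annotation, 15 had only a gene model of the indica genome (numbers that start with BGIOSGA), and 21 had no name at all. An established symbol was held by just 3 clusters, those of CHS1, MHX1 and MAPK6. The rest of the named genes appear under their NCBI (LOC), MSU (LOC_Os) or indica numbers, and no role is given to them here.

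The distances between genotypes ran further in this direction than in the other. The widest gap among the 83 clusters was 2.56 log2, against 1.42 log2 among the 30 clusters (0.0718%) that met the same gap with lower signals in overexpression seedlings. Among the 83 clusters, 20 had a gap of at least 1 log2, 6 of at least 1.5 and 3 of at least 2, and the median was 0.70. Without any minimum, the genotypes did not overlap in 2301 clusters (5.51%) that were higher and 3146 clusters (7.53%) that were lower with overexpression, so without a minimum more clusters lay apart in the lower direction. The median difference was 1.19 log2 over the 83 clusters (quartiles 0.97 and 1.55, range 0.71 to 3.29), while over all clusters it was -0.03 log2 (quartiles -0.17 and 0.12). A difference over 1 log2 was found in 61 of the 83, over 1.5 in 22, over 2 in 7 and over 3 in 2.

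**Figure D1:**
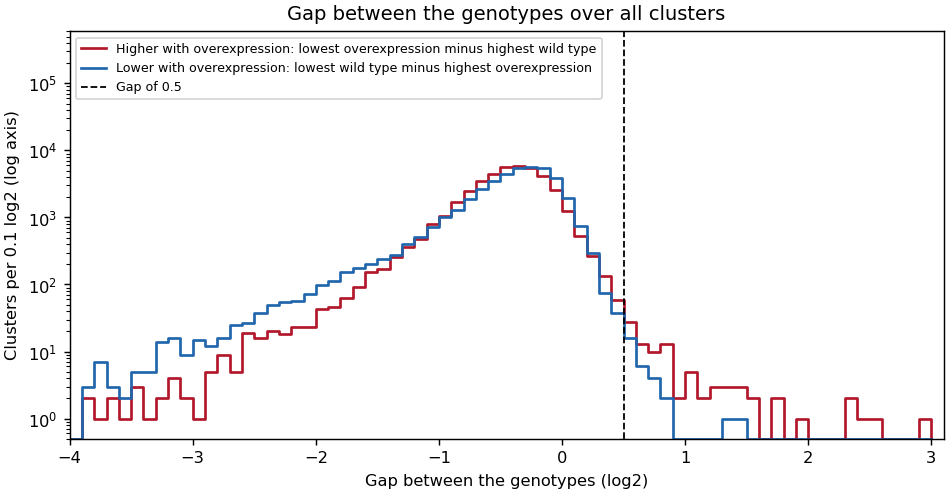
Number of clusters on a log axis in bins of 0.1 log2 of the gap, for gaps with overexpression higher (red) and with overexpression lower (blue), the left-out clusters included; the dashed line is the gap of 0.5 log2. Right of the line the red curve counts 92 clusters and the blue curve 30, and an empty bin lies on the bottom edge.

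The widest gap belonged to LOC4351422, a gene on chromosome 12 that NCBI annotates as a pseudogene. Its signals were 7.01, 6.24 and 6.37 in overexpression seedlings, against 3.68, 3.37 and 2.70 in wild-type seedlings. All 3 wild-type signals lay below the 25th percentile of mean signal over the array (3.91), whereas all 3 overexpression signals lay above its median (5.25), and the difference of 3.29 log2 is 9.78-fold. LOC_Os09g09350, with a gap of 2.48, read 8.64, 7.53 and 7.75 in overexpression seedlings and 5.05, 4.51 and 4.55 in wild-type seedlings, a difference of 3.27 log2 or 9.64-fold. LOC_Os07g39450 read 7.02, 6.61 and 6.66 with overexpression and 4.13, 3.79 and 4.23 in wild type. Its replicates were closer to each other than those of the clusters before it, with SDs of 0.22 and 0.23 log2 (n = 3 each) about a difference of 2.72 log2.

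LOC_Os03g18250 showed 6.98, 6.42 and 6.22 in overexpression seedlings, against 4.44, 3.97 and 3.50 in wild-type seedlings, and its difference was 2.57 log2. LOC4346391 (LOC_Os09g02270) was already bright in wild-type seedlings, at 6.65, 7.01 and 7.72, and stood at 9.65, 9.72 and 9.45 in overexpression seedlings, a difference of 2.48 log2. In LOC4346391 the third wild-type array was the one nearest to the overexpression arrays. In LOC4351321 (LOC_Os12g02370) the same array was instead the farthest, with 9.23, 8.19 and 8.1 in overexpression seedlings and 6.56, 6.69 and 5.50 in wild-type seedlings. The difference of LOC4351321 was 2.26 log2 as a difference of means and 1.52 log2 with Tukey biweight averages, which give less weight to an array apart from the others of its genotype.

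LOC4333209 read 9.65, 8.99 and 8.94 with overexpression, against 7.41, 7.53 and 7.25 in wild type, and differed by 1.80 log2. LOC4324179 was the brightest of the 83 clusters, with 11, 10.59 and 10.35 in overexpression seedlings and 8.99, 8.59 and 8.87 in wild-type seedlings. At a difference of 1.83 log2 it was 3.55-fold higher with overexpression, so the differences were not confined to dim clusters. LOC_Os11g02440 stood at 8.65, 8.28 and 8.09 in overexpression seedlings, against 6.81, 6.73 and 6.51 in wild-type seedlings, a difference of 1.66 log2. LOC4344343 read 8.05, 7.35 and 7.07 with overexpression and 6.06, 5.47 and 5.02 in wild type, with SDs of 0.50 and 0.52 log2 about its difference of 1.97 log2. LOC4344343 combined a large difference with wide replicates in both genotypes, which left a gap of 1.01 log2.

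Several of the widest gaps belonged to clusters known only by an indica gene model. BGIOSGA037210 gave 6.74, 6.49 and 6.55 in overexpression seedlings and 4.55, 4.63 and 4.97 in wild-type seedlings, and its difference was 1.88 log2. BGIOSGA015061 gave 8.03, 8.19 and 7.95 with overexpression, against 6.58, 6.25 and 5.02 in wild type. The third wild-type array was far below the other two in BGIOSGA015061, and the difference of 2.11 log2 was 1.64 log2 without that array. BGIOSGA040495 had nearly equal wild-type signals of 3.17, 3.14 and 3.16 and more scattered overexpression signals of 4.82, 5.26 and 4.48, with a difference of 1.70 log2. BGIOSGA024424 gave 7.36, 6.91 and 7.27 with overexpression and 5.69, 5.02 and 5.70 in wild type, which differ by 1.71 log2. BGIOSGA030196 gave 8.75, 8.83 and 8.50 in overexpression seedlings, against 7.33, 6.70 and 6.44 in wild-type seedlings. Its difference was 1.87 log2, with an overexpression SD of 0.17 and a wild-type SD of 0.46 log2 (n = 3 each).

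The remaining clusters among the 25 widest gaps differed by 1.27 to 1.68 log2. Cluster 16380913, which has no name, read 5.26, 4.88 and 5.69 in overexpression seedlings and 3.75, 3.65 and 3.46 in wild-type seedlings. LOC4344149 (LOC_Os07g46320) read 6.07, 5.66 and 5.57 with overexpression, against 4.01, 4.08 and 4.50 in wild type. LOC4340574 (LOC_Os06g12560) had the smallest overexpression SD of the 25, 0.08 log2, with signals of 6.56, 6.60 and 6.45 in overexpression seedlings and 5.41, 5.0 and 5.40 in wild-type seedlings. In each of these 3 clusters the groups lay more than 1 log2 apart at their nearest arrays. LOC4340980 differed by 1.44 log2, with means of 8.25 ± 0.27 in overexpression seedlings and 6.81 ± 0.21 in wild-type seedlings (SD, n = 3 each). BGIOSGA036482 differed by 1.5 log2, with means of 6.65 ± 0.21 and 5.15 ± 0.30 in overexpression and wild-type seedlings. BGIOSGA012818 differed by 1.31 log2, with means of 8.76 ± 0.22 with overexpression and 7.46 ± 0.15 in wild type. The other 4 of the 25 lay close to another of the 83 clusters and are described with their neighbours.

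**Figure D2:**
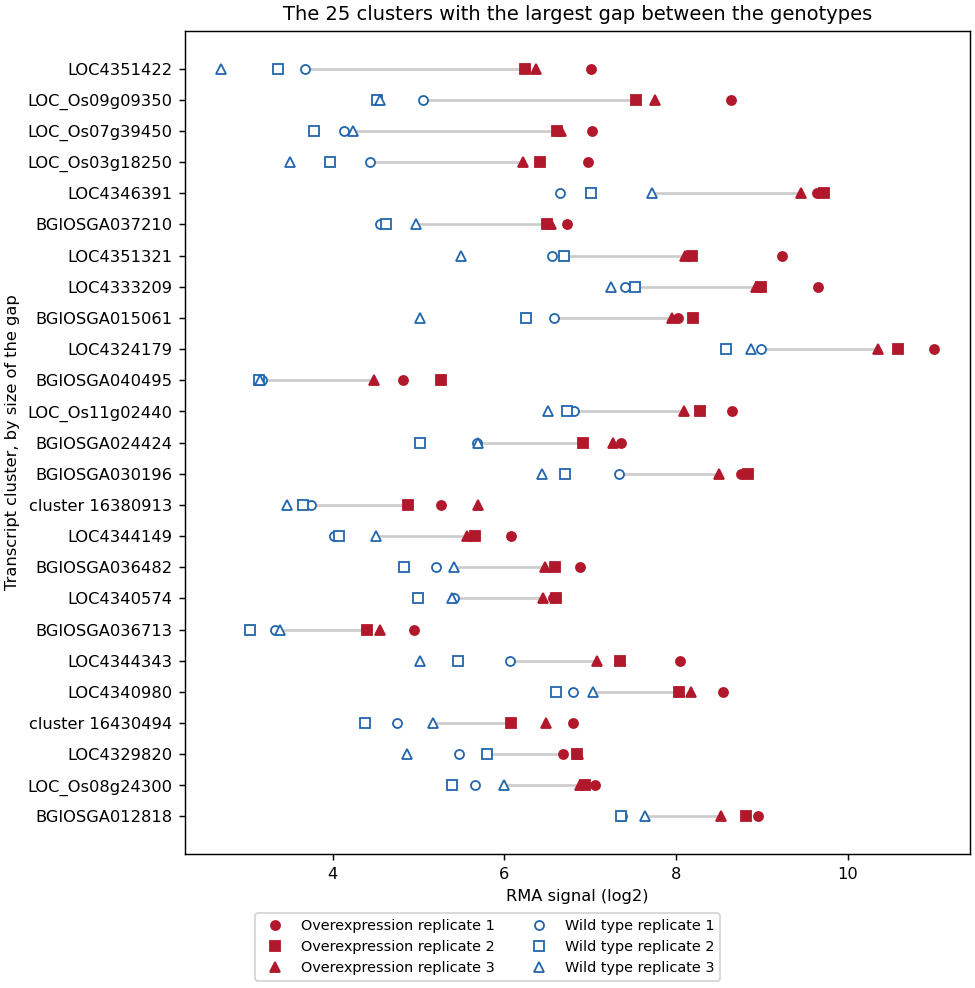
Log2 signal of every array for the 25 clusters with the widest gap, overexpression and wild-type arrays in separate colours, 1 point per array, ordered by the gap. In every row the points of the genotypes are apart, with differences of means between 1.27 and 3.29 log2.

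The 83 clusters were brighter than the array as a whole. Their mean signal over the 6 arrays had a median of 6.53 log2, against 5.25 log2 for all clusters. The brightest 25% of the array held 41 of them (49.4%) and the dimmest 25% held 5 (6.02%). These values include the overexpression signals, which the choice required to be high, and are raised by it. The overexpression means ran from 3.90 to 10.6 log2 (median 7.18), whereas the wild-type means ran from 2.80 to 8.99 log2 (median 5.95). The wild-type median also lay above the medians of the single arrays over all clusters, 5.21 to 5.30 log2. The files give no detection call, so the signal at which a cluster stands above background is not known.

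The replicates of these clusters spread somewhat more than those of other clusters, since the median SD was 0.26 log2 in overexpression seedlings, against 0.19 log2 over all clusters, and 0.25 log2 in wild-type seedlings, against 0.20 log2. Both genotypes held their 3 arrays within 0.3 log2 in 7 of the 83 clusters (8.43%, against 17.7% of all clusters). Among them, cluster 16547848 read 8.55, 8.63 and 8.66 with overexpression and 7.65, 7.64 and 7.75 in wild type. Cluster 16557763 read 7.86, 7.76 and 7.81 with overexpression and 7.02, 6.75 and 7.04 in wild type. Cluster 16502414 read 5.85, 5.70 and 5.88 with overexpression, against 5.02, 4.97 and 4.91 in wild type. Their differences, 0.94, 0.87 and 0.85 log2, were small for the 83 clusters, and their SDs within a genotype were 0.05 to 0.16 log2. That the differences exceed these SDs follows from the gap and the limit of 0.3 log2 by which the clusters were picked. The most even overexpression signals were those of LOC4329844, with 7.06, 7.08 and 7.06, against 6.40, 6.08 and 6.37 in wild type.

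Single arrays stood apart in many of the clusters. The first overexpression array was the highest of its genotype in 58 of the 83 (69.9%), compared with 31.6% of all clusters, while the second was highest in 13 and the third in 12. Over the 83 clusters the median deviation from the genotype mean was 0.24 log2 on the first overexpression array, -0.11 on the second and -0.13 on the third. The first array therefore carried the larger differences: set against the wild-type mean, the median over the 83 clusters was 1.40 log2 on the first overexpression array, 1.13 on the second and 1.03 on the third. It lay more than 0.5 log2 above both other overexpression arrays in 22 clusters (26.5%, against 5.32% of all clusters). LOC4347115 is an example, with 9.45, 8.38 and 8.39 in overexpression seedlings and 7.76, 7.84 and 6.99 in wild-type seedlings. The unnamed cluster 16380581 is another, with 5.02, 4.07 and 3.99 in overexpression seedlings and 3.03, 3.04 and 3.41 in wild-type seedlings. Without the first overexpression array the median difference of the 83 clusters was 1.07 log2.

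Among the wild-type arrays the third was the one that stood apart most often. It lay more than 0.5 log2 below both others in 14 clusters (16.9%, against 7.73% of all clusters) and as far above both in 3 (3.61%, against 6.23%). LOC4337261 belonged to the 14, with 6.92, 6.76 and 6.77 in overexpression seedlings and 6.20, 6.15 and 5.28 in wild-type seedlings. LOC_Os03g31730 did too, with 10.09, 9.35 and 9.06 with overexpression and 8.33, 8.07 and 7.11 in wild type. The 3 clusters with the third wild-type array on top were LOC4346391, LOC4352535 and the unnamed 16380371. LOC4352535 read 9.46, 9.37 and 9.41 with overexpression, against 8.22, 8.25 and 8.83 in wild type. Leaving out this array hardly moved the median difference, which was again 1.19 log2, but 411 clusters of the array then met the same gap. Leaving out an array can only widen gaps, and the count was 117 without the first overexpression array, 170 without the second and 178 without the third, then 169 without the first wild-type array and 126 without the second.

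**Figure D3:**
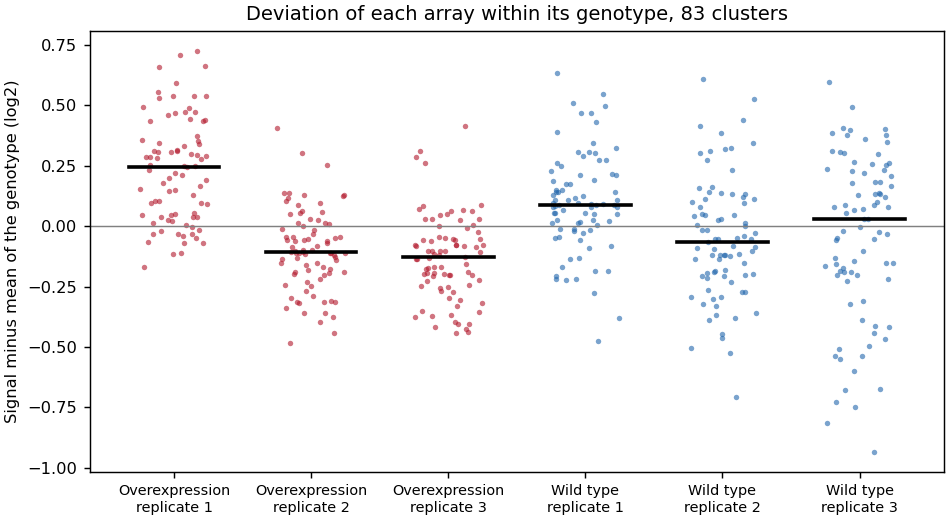
Deviation of each array from the mean of its genotype (log2) over the 83 clusters, the 3 overexpression arrays left of the 3 wild-type arrays. The first overexpression array lies above 0 in most clusters, with a median of 0.24 log2, while the wild-type medians lie between -0.07 and 0.09 log2.

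CHS1, LOC4350636, encodes chalcone synthase, the enzyme that opens the flavonoid pathway by joining coumaroyl-CoA with malonyl-CoA. Its cluster read 8.80, 8.21 and 7.97 in overexpression seedlings, against 7.42, 7.29 and 6.13 in wild-type seedlings. The means were 8.33 ± 0.43 with overexpression and 6.95 ± 0.71 in wild type (SD, n = 3 each), which differ by 1.38 log2 or 2.61-fold. The third wild-type array was the lowest, and the difference was 0.97 log2 without it and 0.91 log2 with Tukey biweight averages. A second cluster of CHS1 (16423952) did not reach the gap of 0.5 but had the genotypes apart as well, with 8.29, 8.05 and 7.86 in overexpression seedlings and 7.39, 7.20 and 6.42 in wild-type seedlings, a difference of 1.06 log2 and a gap of 0.47. Of a list of 17 flavonoid genes 3 were measured under their symbols, and CHS1 was the only one among the 83 clusters. The others were CHS2, another chalcone synthase, and CHI, chalcone isomerase, the next enzyme of the pathway, and their differences of -0.02 and 0.23 log2 did not pass the threshold of the study (more than 2-fold and unadjusted p under 0.05 by limma, which called 0.335% of all clusters higher).

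MHX1, LOC4351058, is named after the vacuolar exchanger of magnesium, zinc and protons known from Arabidopsis. Its signals were 6.55, 6.39 and 6.56 in overexpression seedlings and 5.44, 4.53 and 5.73 in wild-type seedlings, with SDs of 0.10 and 0.63 log2 (n = 3 each). The overexpression arrays agreed closely and the wild-type arrays did not. The gap was 0.66 log2, and the difference was 1.27 log2, or 2.41-fold, and 0.92 log2 without the low second wild-type array. Its indica gene model number lies 12 away from that of YSL2, an iron chelate transporter that was set aside, and 12 places separate them in the array numbering, whereas the current NCBI assembly puts MHX1 on chromosome 11 and YSL2 on chromosome 2. The MSU locus given for this cluster in the study's supplement, LOC_Os11g43860, is on chromosome 11 too. With these placements in conflict, which gene the probes of this cluster match is not settled here. In a list of 35 other metal transport genes, 11 were measured. None of them was among the 83 clusters, none was called higher, and their median difference was -0.02 log2. COPT1, a copper transporter, was called lower, as were 0.172% of all clusters. Its signals were 4.88, 6.06 and 6.59 with overexpression and 7.33, 7.35 and 6.53 in wild type, a difference of -1.23 log2 (SE 0.42, limma adjusted p = 0.669). Its genotypes overlapped, and the difference was -0.74 log2 without the first overexpression array.

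MAPK6, LOC4339633, encodes a mitogen-activated protein kinase, a member of the cascades that relay stress and developmental signals by phosphorylation. NCBI lists MAPK6 and MPK7 alike as other names of this gene, which lies on chromosome 5. It read 9.0, 8.51 and 8.60 in overexpression seedlings and 7.99, 7.85 and 7.97 in wild-type seedlings. The wild-type arrays were tight (SD 0.07 log2) and the overexpression arrays less so (SD 0.26 log2, n = 3 each). Its difference of 0.77 log2, or 1.70-fold, was among the smaller of the 83, and its gap was 0.52.

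**Figure D4:**
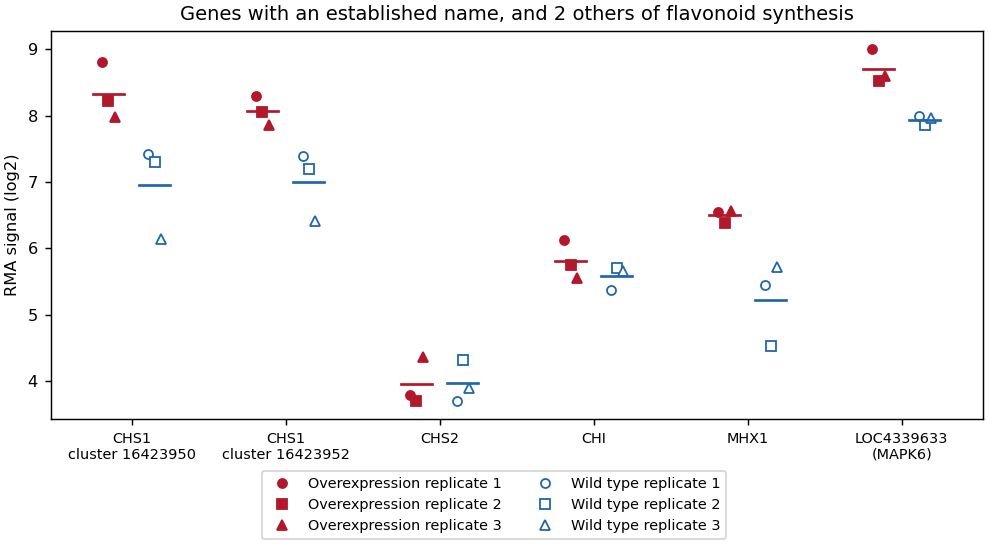
Log2 signal of each array for the clusters with an established gene symbol and for related clusters, overexpression arrays left of wild-type arrays. CHS1, MHX1 and MAPK6 have the genotypes apart by gaps of 0.56, 0.66 and 0.52 log2.

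Some of the 83 clusters lay beside each other. LOC4329820 and LOC4329821 are adjacent genes of chromosome 2 in the NCBI gene order. LOC4329820 read 6.68, 6.85 and 6.86 in overexpression seedlings, against 5.47, 5.79 and 4.87 in wild-type seedlings, a difference of 1.42 log2. LOC4329821 read 7.77, 7.44 and 7.45 in overexpression seedlings, against 6.76, 6.57 and 6.05 in wild-type seedlings, a difference of 1.10 log2. Between these clusters in the array numbering, LOC4329823 differed by 1.01 log2 with a gap of 0.40 and cluster 16451137 by 0.29 log2. LOC4329844, the cluster with even overexpression signals given above, is 25 genes away from LOC4329821 and differed by 0.79 log2. The clusters LOC4333209 and BGIOSGA010462 carry consecutive indica model numbers and differed by 1.80 and 1.65 log2. BGIOSGA010462 gave 7.55, 6.91 and 6.59 with overexpression and 5.51, 4.86 and 5.72 in wild type.

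Around LOC4345387, a gene of chromosome 8, 5 neighbouring clusters had the genotypes apart throughout, as had 5.51% of all clusters in the higher direction. For clusters 16547837 and 16547848, which are among the 83, the choice itself required this. LOC4345387 (cluster 16547837) read 9.35, 9.34 and 9.47 in overexpression seedlings and 8.49, 8.36 and 8.54 in wild-type seedlings, and cluster 16547848, whose signals are given above, lies 2 places further. Their differences were 0.92 and 0.94 log2. The clusters before, between and after them differed by 0.45, 0.49 and 1.07 log2 with gaps below 0.5, and the last of these is paired with LOC4345387 too. LOC_Os08g24300, also on chromosome 8, read 7.05, 6.94 and 6.88 with overexpression, against 5.66, 5.39 and 5.99 in wild type, a difference of 1.27 log2. The unnamed cluster 16547454, 3 places from it, read 9.63, 9.83 and 9.65 with overexpression, against 9.07, 8.92 and 8.97 in wild type, and its difference of 0.71 log2 was the smallest of the 83. Of the clusters between them, 16547459 differed by 1.16 log2 with a gap of 0.41 and 16547457 by 0.07 log2.

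BGIOSGA036713 (16430482) and cluster 16430494, 3 places apart, formed another such pair. BGIOSGA036713 gave 4.95, 4.40 and 4.56 in overexpression seedlings and 3.33, 3.04 and 3.39 in wild-type seedlings, a difference of 1.38 log2. Cluster 16430494 gave 6.80, 6.08 and 6.48 in overexpression seedlings and 4.76, 4.38 and 5.17 in wild-type seedlings, a difference of 1.68 log2, and is paired with 2 genes, so its signal cannot be assigned to either. Next to them LOC4351382 (16430477) and LOC4349662 (16430489) differed by 0.88 and 0.55 log2 with gaps of 0.38 and 0.31. LOC4349662 is also 1 of the 2 genes of cluster 16430494, but cluster 16430492, which lies between these clusters, differed by -0.05 log2.

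Links to the genes set aside were found in 2 further clusters. BGIOSGA020030, next to the cluster of the zinc transporter ZIP9, read 8.21, 7.89 and 8.52 in overexpression seedlings and 6.93, 6.65 and 7.36 in wild-type seedlings, and the differences were 1.23 log2 in BGIOSGA020030 and 1.83 log2 in ZIP9. The order of the 3 replicates was the same in both clusters within each genotype. LOC4325751 read 9.60, 9.05 and 8.66 in overexpression seedlings and 7.92, 7.59 and 7.43 in wild-type seedlings, a difference of 1.45 log2, and it is also paired, together with LOC4325750, with a left-out cluster, which differed by 1.84 log2. For clusters that share a gene or lie side by side, overlapping transcripts, probes that match both and separate changes cannot be told apart from these signals.

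**Figure D5:**
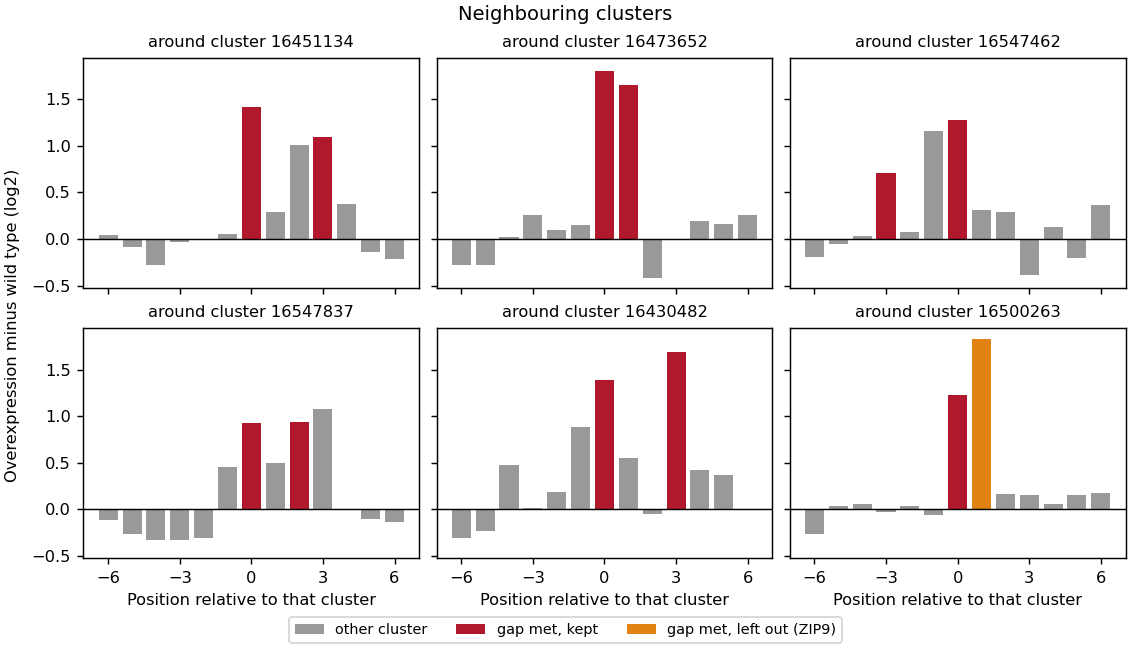
Difference between genotypes (log2) of clusters within 6 places of selected clusters in the array numbering. Red bars are among the 83 clusters, the orange bar is the left-out ZIP9 cluster (1.83 log2) and grey bars are other clusters, most of which lie close to 0.

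A second cluster of the same gene was measured for 2 of the 37 singly named genes, CHS1 and LOC4345387. Both second clusters were higher in all overexpression arrays than in all wild-type arrays, by 1.06 and 1.07 log2, although neither met the gap of 0.5. Over all clusters, 5.51% had the genotypes apart in this direction and 44.3% had a positive difference. The choice did not use these second measurements, but they come from the same 6 RNA samples.

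Pseudogenes made up 3 of the 37 singly named genes (8.11%), against 223 of 15298 such clusters on the array (1.46%). Besides LOC4351422 these were LOC4338112 and the transcribed pseudogene LOC4325417. LOC4338112 (LOC_Os05g12400) read 8.24, 7.69 and 7.47 in overexpression seedlings and 6.49, 6.60 and 5.74 in wild-type seedlings, a difference of 1.53 log2. LOC4325417 (LOC_Os01g28030) read 7.47, 7.20 and 6.74 in overexpression seedlings and 6.04, 5.81 and 5.44 in wild-type seedlings, a difference of 1.38 log2. All 3 pseudogenes had the third wild-type array as the lowest of its genotype. With 3 genes the share rests on few clusters and was not tested.

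Each of the 12 chromosomes held at least 1 of the 37 genes, though not evenly. Chromosome 12 held 5 of them, 0.677% of its 739 singly named clusters, and chromosome 9 held 4, or 0.503%, while the share over all chromosomes was 0.242% and the lowest was 0.0719% on chromosome 4, with 1 gene. On chromosome 12 the genes LOC4351321 and LOC4351422 were joined by LOC4351372, with 6.84, 6.78 and 6.86 in overexpression seedlings and 6.09, 5.85 and 6.17 in wild-type seedlings, a difference of 0.79 log2. The other genes of chromosome 12 were LOC4352535, described above, and LOC4352083, which differed by 0.87 log2. The 5 genes of this chromosome thus differed by 0.79 to 3.29 log2. Among the first 200 genes of chromosomes 11 and 12 lay 2 of the 37, LOC4351321 and LOC4351372. They were 1.22% of the 164 singly named clusters there, against 0.242% over all chromosomes, which was not tested. Clusters without a single gene are outside these shares. Among them, LOC_Os11g02440 and clusters 16430494 and 16416550 have MSU loci on chromosome 11.

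A stretch of the array with no gene names held more of the 83 clusters than its size. It comprises the 445 clusters numbered 16380129 to 16381016, none of which is paired with a gene and whose nature is not given in the sources used here. It held 6 of the 83 clusters (7.23%), against 1.07% of all clusters, and none of its clusters met the gap in the other direction. The stretch was itself picked as the run of closely numbered clusters that held the most of the 83. Its high share follows in part from that choice and was not tested. These clusters were dim, with a median signal of 3.56 log2 over the stretch. The longest row of positive differences in it, picked after the values were seen, took in the 23 clusters numbered 16380549 to 16380593, with a median of 0.70 log2, and 9 of them exceeded 1 log2, at mean signals of 2.17 to 5.25 log2. Cluster 16380583 read 5.81, 5.14 and 4.86 with overexpression, against 3.94, 4.32 and 3.11 in wild type, and cluster 16380559 read 4.63, 3.95 and 4.72 with overexpression, against 2.42, 3.41 and 2.57 in wild type. Their differences were 1.48 and 1.64 log2. The 445 clusters had a median difference of 0.12 log2, which is close to the 75th percentile over all clusters (0.12 log2).

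The 58 clusters after the 25 with the widest gaps differed by 0.71 to 1.66 log2, with a median of 1.09 log2. At the edge of the choice the values ran on without a step. The last cluster kept, 16488098, read 4.72, 4.77 and 4.55 with overexpression and 4.05, 4.0 and 3.83 in wild type, and LOC4348916, just before it, read 6.39, 6.07 and 5.86 with overexpression and 5.36, 4.89 and 5.30 in wild type. Cluster 16558785, just before that, read 5.80, 4.97 and 5.22 with overexpression and 4.45, 3.67 and 4.45 in wild type, a difference of 1.14 log2. The nearest cluster not kept was LOC4344895, with 4.98, 4.84 and 5.10 in overexpression seedlings and 4.34, 4.08 and 4.19 in wild-type seedlings, a difference of 0.77 log2. LOC4326889 and LOC4347242 followed it, with differences of 0.74 and 0.79 log2.

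Apart from the flavonoid list, no list of named genes examined held any of the 83 clusters. Of 94 genes of auxin response, synthesis and transport, 40 were measured, with a median difference of 0.03 log2, and 1, the auxin response repressor IAA13, was called higher. IAA13 read 8.46, 8.25 and 7.86 in overexpression seedlings and 7.76, 7.72 and 6.07 in wild-type seedlings, a difference of 1.01 log2 (SE 0.43, limma adjusted p = 0.721) that was 0.45 log2 without the third wild-type array. None was called in either direction among 16 measured phosphate starvation genes of 36 (median 0.01 log2), 10 chlorophyll metabolism genes of 20 (median 0.25 log2), 4 glutathione transferases of 14 (median 0.19 log2) and 7 late embryogenesis and water deficit genes of 21 (median -0.30 log2). The same threshold called 140 clusters higher (0.335%) and 72 lower (0.172%) over the array, and all clusters had a median difference of -0.03 log2. Since at most 1 in 2 genes of each of these pathway lists could be matched by symbol, genes of these pathways may be present among the clusters without names.

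The seedlings held root and shoot together. In bulk RNA, fewer cells of a type and less RNA per cell cannot be told apart. The mean signal of 5 measured shoot markers of 9, genes of photosynthesis, was 10.2, 10.1 and 10.2 in overexpression seedlings and 9.87, 9.83 and 9.68 in wild-type seedlings, with a median difference of 0.39 log2 and no gene called. The mean thus lay slightly higher on all overexpression arrays, but the genotypes overlapped in CAB1R and CAB2R, which encode chlorophyll-binding proteins, and CAB2R differed by -0.05 log2. The 3 measured root markers of 10 averaged 6.93, 6.58 and 6.61 with overexpression and 7.02, 6.82 and 6.46 in wild type, a median difference of 0.01 log2. The 5 measured markers of dividing tissue, of 8, averaged 5.75, 5.02 and 5.10 with overexpression and 6.15, 5.97 and 4.29 in wild type, so the third wild-type array was the lowest in them and the first overexpression array the highest of its genotype. The same arrays stood apart in many of the 83 clusters, and the part of tissue composition in the differences was not tested. The study reported its highest RNA integrity among the controls for the third control sample. Its first overexpression sample was neither the highest nor the lowest of its genotype. The part of RNA quality was not tested either.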

How the data were processed

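The authors hybridised RNA of 3 overexpression and 3 wild-type seedling samples to Affymetrix rice gene arrays and deposited log2 signals for 41770 transcript clusters, made by RMA in Affymetrix Expression Console (background correction, quantile normalization and summary of probes). The labels call the samples biological replicates. Array medians lay between 5.21 and 5.30 log2 and signals between 1.25 and 13.9. In 469 clusters all 6 signals equalled those of another cluster, none of them among the 83. All 6 deposited value columns were used and 0 per-sample columns were left out. The fold changes and p-values in the authors' own comparison were not used, only the transcript names beside them.

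Clusters were named by the platform annotation, the transcript names of the study's supplement and the RefSeq gene table of another rice assembly, ASM3414082v1, which served only for names, gene type, chromosome and gene order. No sequence was at hand, so none is printed. The members and the gene lists were chosen with earlier results of these data known. Named with values are the 25 clusters with the widest gap, those with an established symbol or on a gene list, those beside another member, 3 on either side of the gap of 0.5, and clusters given as examples of a pattern, which were chosen after their values were seen. Differences are of means, with SD over 3 arrays. As a background, limma 3.58.1 in R 4.3.3 was fitted over all clusters with genotype as the only term and called clusters over 2-fold at unadjusted p under 0.05, the threshold in the study's methods. The fit was checked on simulated data. Alternatives were a gap of 0.25 or 1 log2, quantile or cyclic loess normalization of the deposited signals, Tukey biweight averages, leaving out the 25% dimmest clusters or clusters without a single gene, an intensity trend, array weights, the methods' t-test, a replicate block, and leaving out each array. Leaving out each array for the called genes of the lists that are not among the 83 was added after seeing the data.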

Additional observations from a re-analysis of the deposited data

How the results depend on the processing

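The number of clusters kept depended on the gap and on each array more than on the scaling. It was 83 as reported, 86 after quantile and 90 after cyclic loess normalization (80 of the 83 in each), 376 at a gap of 0.25 log2, 20 at a gap of 1 log2, 78 without the 25% dimmest clusters and 37 with singly named clusters alone. Leaving out an array gave 117 to 411 clusters, the most without the third wild-type array, because fewer arrays can only widen a gap. The median difference of the 83 clusters stayed between 1.07 and 1.25 log2 under quantile and cyclic loess normalization, biweight averages and leaving out each array. In 41 named clusters under 9 such settings each (369 values) no difference changed sign, 2 moved by more than 1 SD, and the lowest was 0.59 log2. The choice fixed much of this in advance. With an array left out or biweight averages, a gap of 0.5 log2 keeps every difference at 0.5 log2 or more. The unchanged signs are therefore no separate support for the differences. The limma counts over the array were 140 higher and 72 lower. Lower calls numbered 27 by the methods' t-test, which made 102 higher calls, and 122 with array weights. Leaving out an array gave 104 to 222 higher and 54 to 196 lower calls, with the highest counts, 222 and 196, without the third wild-type array. After Benjamini-Hochberg adjustment limma called 6 higher and 0 lower, array weights 24 and 2, and the t-test 0 in either direction, while leaving out an array called none except without the third wild-type array, 94 higher and 57 lower. Intensity trend, the other normalizations, the filter on dim clusters and the block called 5 to 14 higher and 0 or 1 lower. Same-numbered arrays deviated together in 2 pairs and not in the second (correlations over clusters of 0.35, -0.11 and 0.21), so the numbers do not pair the samples. A replicate block by number gave 162 higher and 84 lower calls. When the smallest same-numbered difference had to reach 0.5 log2, 240 clusters were kept, the 83 necessarily among them.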
